A study of Rattus norvegicus with 3 samples.

Results

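The genes examined were the 4 Id genes (Id1, Id2, Id3 and Id4) and 6 genes of the bone morphogenetic protein (BMP) pathway, namely the ligands Bmp2 and Bmp4, the receptor Bmpr1a, the signal transducer Smad1 and the inhibitory Smad6 and Smad7. These 10 genes were taken from the 13301 genes with a named probe on the array and were covered by 17 of 40816 probes. The set was chosen on the measured ratios of Id1, which was among the genes most increased over mesenchymal stem cells (MSCs) in both sarcoma lines, and the other genes were added for their place in the same family and pathway. All ratios to MSCs are therefore given as a description.

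RNA from 3 rat cell types of the inbred F344 strain was compared, with 1 array each. MSC cultures came from femur bone marrow and were obtained by growth on plastic, and the methods name no sorting by surface markers. COS1NR is an osteosarcoma line and MFH1NR a malignant fibrous histiocytoma line, and the methods trace both to chemically induced osteosarcoma of these rats and describe a p53 mutation in them. All cells were kept in Dulbecco's medium, with a higher share of fetal bovine serum for MSCs than for the sarcoma lines, and the age and sex of the animals were not given in the sources used here. Since there was 1 array per cell type, no test was possible, and no difference could be set against a spread between cultures.

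Id proteins are helix-loop-helix proteins without a DNA-binding basic region. They form dimers with basic helix-loop-helix (bHLH) factors such as the E proteins and keep them off DNA, and they are known for holding mesenchymal, muscle and neural precursors in an undifferentiated, dividing state. BMP ligands bind paired type I and type II receptor kinases, which phosphorylate Smad1, Smad5 and Smad9. These enter the nucleus with Smad4, and Id1, Id2, Id3, Smad6 and Smad7 are among the genes they are known to switch on, the last of these acting as feedback inhibitors. In bone marrow stroma, the pathway is best known for driving osteoblast and chondrocyte formation.

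The Id genes lie on different chromosomes, and their promoters are shown because the family members differed so widely between the arrays. The stretches before the first annotated base of each gene are from RefSeq, build GRCr8 of a BN rat and not of F344, written 5′ to 3′ on the strand of the gene. They cover chr3:161671314-161671524 on the plus strand, chr6:47470996-47471245 on the minus strand, chr5:153656041-153656252 on the plus strand and chr17:16598294-16598543 on the minus strand. The following 4 sets of letters were searched on both strands, and capitals mark a match. The letters GGCGCC occur in BMP-responsive Smad sites. The letters CAGAC are a shorter Smad-binding element. The E-box, CANNTG, is bound by bHLH factors, and TATAAA is the TATA box core.
Id1: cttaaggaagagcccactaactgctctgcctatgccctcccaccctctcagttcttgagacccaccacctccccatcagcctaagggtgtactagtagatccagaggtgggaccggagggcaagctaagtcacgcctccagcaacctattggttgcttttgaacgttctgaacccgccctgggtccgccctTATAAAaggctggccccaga
Id2: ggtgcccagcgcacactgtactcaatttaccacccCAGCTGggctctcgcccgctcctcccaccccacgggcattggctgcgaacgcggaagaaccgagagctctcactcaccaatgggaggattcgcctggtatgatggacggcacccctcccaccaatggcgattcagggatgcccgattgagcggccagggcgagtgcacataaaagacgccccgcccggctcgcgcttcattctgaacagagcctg
Id3: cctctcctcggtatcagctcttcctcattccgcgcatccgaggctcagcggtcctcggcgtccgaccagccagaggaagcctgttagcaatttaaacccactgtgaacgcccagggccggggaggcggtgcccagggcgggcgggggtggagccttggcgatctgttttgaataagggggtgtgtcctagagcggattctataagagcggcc
Id4: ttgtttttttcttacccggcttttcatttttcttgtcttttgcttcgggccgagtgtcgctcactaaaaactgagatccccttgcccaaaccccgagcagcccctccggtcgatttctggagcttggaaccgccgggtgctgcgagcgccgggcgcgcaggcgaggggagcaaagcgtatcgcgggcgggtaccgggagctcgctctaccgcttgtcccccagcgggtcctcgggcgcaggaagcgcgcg
In these stretches a TATA box is marked in Id1 and an E-box in Id2, and none of the letters occur in those of Id3 and Id4. The full RefSeq windows of 300 bases, which run on into the transcript, were found for 8 of the 10 genes. There, Id1 also held 1 shorter Smad element and 1 E-box, and Id4 held 1 match to GGCGCC. Among the BMP genes, Smad7 held 2 matches to GGCGCC, and Bmp4 held 2 shorter Smad elements and 2 E-boxes. Bmpr1a held 1 match to TATAAA, on the opposite strand at position -233 from the start, and Smad1 held none of the letters. Of all 33469 windows of this length, 11% held GGCGCC, 50.1% the shorter Smad element, 72.1% an E-box and 14.2% the letters TATAAA. A match describes the letters and says nothing of binding in these cells.

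Each array held 43379 spots that are not controls, of which 24551 to 25899 were well above background by the call of the scanner software, and none was saturated. Intensities are given as deposited, and ratios were taken after each array was divided by its 75th percentile (589, 774 and 994 in MSCs, COS1NR and MFH1NR). A ratio with 1 side not well above background is a bound, for which that side was set no lower than the dimmest spot with the call (18.0 in MSCs, 29.4 in COS1NR and 30.1 in MFH1NR). The log2 ratio from single spots had an SD of 0.107 for COS1NR to MSCs and 0.105 for MFH1NR to MSCs from replicate spots within an array. Between the probes of a gene, these log2 ratios differed by a median of 0.28 and 0.32, and 1 gene in 10 exceeded 0.93 and 1.01. These spreads leave out cultures and labeling. Without scaling, all log2 ratios to MSCs would be higher by 0.39 in COS1NR and 0.76 in MFH1NR, and with scaling by 7 spike-in probes, lower by 0.27 in COS1NR and higher by 0.52 in MFH1NR. COS1NR and MFH1NR were hybridized on the same slide and MSCs on a different one. In a ratio to MSCs, the slide cannot be told apart from the cell type, while the ratio of MFH1NR to COS1NR lies within 1 slide.

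The labels were checked against markers. All 8 mesenchymal markers (such as Col1a1 and Vim) were well above background in MSCs and in MFH1NR, and 7 in COS1NR, where Thy1 was not. At least 2-fold lower than in MSCs were 7 in COS1NR (20.0% of all genes) and 4 in MFH1NR (21.6%). Col1a1 was in neither count, with log2 ratios of -0.33 in COS1NR and -0.38 in MFH1NR. Its second probe had -3.69 and -3.35. Of 12 leukocyte markers, 10 passed the call in MSCs against 5 in COS1NR and 4 in MFH1NR. All 10 with a ratio were at least 2-fold lower in both sarcomas (12.9% of all genes). Their scaled intensities summed to 152 in MSCs against 8.97 in COS1NR and 4.25 in MFH1NR, and Cd3e, which defines T cells, was not well above background on any array. The 4 osteoblast markers with a ratio in the osteosarcoma line COS1NR were all at least 2-fold lower there than in MSCs (20.0% of all genes). In MFH1NR, 2 of 5 were higher (19.3%) and 2 lower (21.6%). Of these markers, Sp7 was not well above background in COS1NR or MSCs, at 6.34 and 7.26, and had 108 in MFH1NR. The part of these cells in any ratio to MSCs below was not tested, and fewer cells of a type cannot be told apart from less RNA per cell.

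Id1 was lower in MSCs than in both sarcomas. The intensity of its single probe came to 566 in MSCs, 9702 in COS1NR and 50908 in MFH1NR. The MSC value lay close to the 75th percentile of its array, and the highest value was that of MFH1NR. After scaling, Id1 was 13-fold higher in COS1NR than in MSCs (log2 ratio of 3.70) and 53.3-fold higher in MFH1NR (5.73). Its rank from the highest was 79 of 9640 genes in COS1NR and 17 of 9823 in MFH1NR, and among the 7932 genes well above background on all arrays its mean ratio over both lines was the fourth highest. Within the shared slide, Id1 was 4.08-fold higher in MFH1NR than in COS1NR. Having a single probe, Id1 had no second measurement on these arrays.

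**Figure D1:**
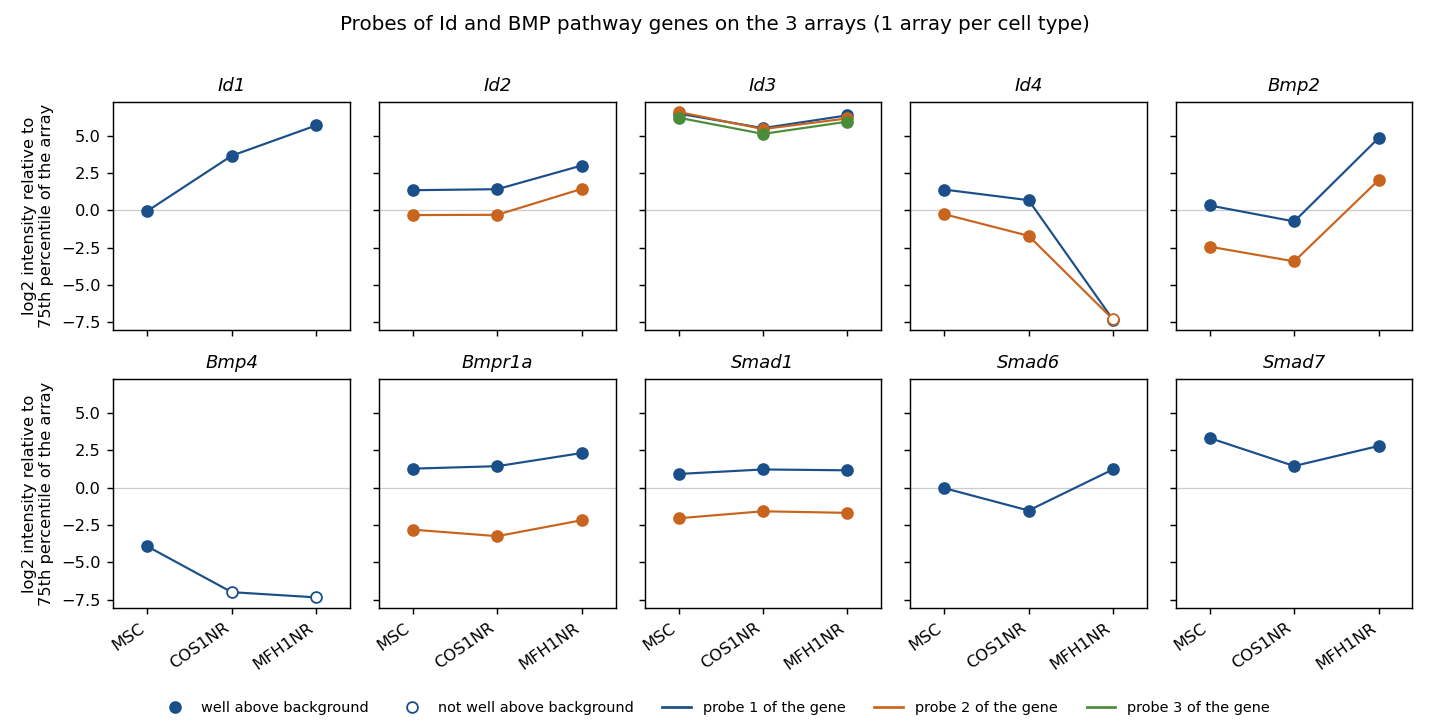
Log2 intensity of each probe minus the 75th percentile of the array (y axis) on the MSC, COS1NR and MFH1NR arrays (x axis), 1 panel per gene and 1 line per probe. Filled points were well above background and open points were not; heights of different probes cannot be compared. Id1 is higher in both sarcomas, Id2 and Bmp2 in MFH1NR, and Id4 is at background in MFH1NR.

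Id2, which like Id1 restrains bHLH factors and also binds the retinoblastoma protein, was higher in MFH1NR alone. Its brighter probe had 1492 in MSCs and 2053 in COS1NR against 7924 in MFH1NR. Its other probe had 470.2, 625 and 2679 in the same order. After scaling, COS1NR and MSCs lay within the spread of replicate spots, with ratios of 1.05 and 1.01, and the direction of the brighter probe turned under quantile normalization and spike-in scaling. In MFH1NR the ratios to MSCs were 3.15 and 3.38, and the log2 ratios to COS1NR were 1.59 and 1.74. The probes differed by 0.10 in the log2 ratio of MFH1NR to MSCs.

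Id3, another direct BMP target, was bright on every array and, of the Id genes, differed least between MFH1NR and MSCs. Its 3 probes had between 43257 and 56353 in MSCs, between 26746 and 34992 in COS1NR and between 60611 and 81297 in MFH1NR. After scaling, COS1NR was lower than MSCs by 1.96-fold to 2.21-fold, so the 2-fold threshold was passed by 2 probes and missed by the brightest. The ratios of MFH1NR to MSCs were 0.741 to 0.923, and the brightest probe turned above 1 without scaling and with median, quantile or spike-in scaling. The ratio of MFH1NR to COS1NR was 1.64 to 1.81 over the probes, which passed 2-fold without scaling and with quantile and spike-in scaling.

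Id4, which can form dimers with other Id proteins and is known as a regulator of osteoblast and neural differentiation, ran against Id1 in MFH1NR. Its brighter probe had 1538 in MSCs and 1233 in COS1NR against 6.18 in MFH1NR, and its dimmer probe had 490.3, 236 and 6.27. In MFH1NR neither probe was well above background, and on the other arrays both were. Relative to MSCs, Id4 in MFH1NR was lower by at least 86.3-fold with the brighter probe and at least 27.5-fold with the dimmer one, and relative to COS1NR by at least 52.7-fold and 10.1-fold. With a normexp background correction, which added an offset of 50 to each intensity, the bounds of the brighter probe in MFH1NR changed. In log2 they were -4.91 to MSCs and -4.30 to COS1NR, against -6.43 and -5.72. Between COS1NR and MSCs the probes gave 1.64-fold and 2.73-fold lower, on either side of the threshold.

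Bmp2, a ligand that induces bone and cartilage, had the widest gap between the sarcoma lines among these genes except for Id4, whose gap is a bound. The brighter of its 2 probes had 734 in MSCs and 460.2 in COS1NR against 28449 in MFH1NR, and the other had 108, 72.0 and 4044. MFH1NR stood above both other arrays by either probe. The ratio of MFH1NR to MSCs was 23.0 and 22.1 by these probes, and that to COS1NR was 48.1 and 43.7. Bmp2 ranked 49 of 9823 genes from the highest in MFH1NR to MSCs and 59 of 9335 in MFH1NR to COS1NR. In COS1NR it was 2.09-fold and 1.98-fold lower than in MSCs, and under 2-fold also without scaling, with median scaling and after a normexp background correction.

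Bmp4, a ligand of the same receptors, was dim. Its single probe had 39.0 in MSCs, and 6.11 in COS1NR and 6.16 in MFH1NR were not well above background. Relative to MSCs it was lower by at least 1.75-fold in COS1NR and at least 2.19-fold in MFH1NR, and the latter bound was under 2-fold without scaling and with median, quantile or spike-in scaling. The bound in COS1NR passed 2-fold with spike-in scaling. No ratio between the sarcomas can be given. So in MFH1NR the 2 ligands lay on opposite sides of MSCs.

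The receptor and its Smad differed less between the arrays than Bmp2. Bmpr1a, a type I receptor kinase for both ligands, had, with its brighter probe, 1436 in MSCs, 2113 in COS1NR and 5005 in MFH1NR, while its dimmer one had 84.5, 82.1 and 221. MFH1NR was highest by both probes. Its ratio to MSCs there was 2.06 and 1.55, so the 2-fold threshold was passed by 1 probe, and in COS1NR the probes gave opposite directions, with 1.12 and 0.740. Between MFH1NR and COS1NR the ratio was 1.84 and 2.09, and the former passed 2-fold without scaling and with spike-in scaling. Smad1, which carries the receptor signal to the nucleus, had, with its brighter probe, 1121 in MSCs, 1815 in COS1NR and 2242 in MFH1NR, while its dimmer one had 143, 261 and 311. Both probes of Smad1 had ratios to MSCs between 1.18 and 1.38 in the sarcomas, and 0.961 and 0.929 between MFH1NR and COS1NR, which turned above 1 without scaling and with spike-in scaling.

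The inhibitory Smads, each with a single probe and so no second measurement, were lower in COS1NR. Smad6, which blocks Smad1 in the BMP branch, had 582 in MSCs, 270 in COS1NR and 2340.1 in MFH1NR. It was 2.83-fold lower in COS1NR than in MSCs and 2.38-fold higher in MFH1NR, so the sarcomas lay on either side of MSCs, and MFH1NR was 6.75-fold above COS1NR. Smad7, which blocks both the BMP and the transforming growth factor-β branch, had 5932 in MSCs, 2127 in COS1NR and 6942 in MFH1NR. It was 3.66-fold lower in COS1NR, had a ratio of 0.693 in MFH1NR, which turned above 1 without scaling, and was 2.54-fold higher in MFH1NR than in COS1NR.

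Of the 10 genes, 1 (Id1) was at least 2-fold higher in COS1NR than in MSCs, against 20.6% of all genes, and 3 (Bmp2, Smad6 and Smad7) were lower, against 20.0%. In MFH1NR, 5 (Id1, Id2, Bmp2, Bmpr1a and Smad6) were at least 2-fold higher than in MSCs, against 19.3% of all genes, and 2 (Id4 and Bmp4) were lower, against 21.6%. Both sets of ratios share the MSC array. Within the shared slide, 5 of the 9 genes with a ratio (Id1, Id2, Bmp2, Smad6 and Smad7) were at least 2-fold higher in MFH1NR than in COS1NR, against 12.4% of all genes, and Id4 was lower, against 15.1%. Log2 ratios within the slide would all be higher by 0.36 without scaling and by 0.79 with spike-in scaling, and the all-gene shares would then be 19.9% higher and 10.2% lower, and 34.95% higher and 7.09% lower. Id3 and Bmpr1a would pass 2-fold as well under both of these settings. The median log2 ratio of the genes was -0.76 in COS1NR and 0.65 in MFH1NR to MSCs, and 1.34 between MFH1NR and COS1NR, against 0.11, 0.015 and -0.09 for all genes. Bmp2 and Smad6 were at least 2-fold lower in COS1NR and higher in MFH1NR, against 0.989% of all genes. The genes were chosen with these ratios known, so the counts describe them and carry no test.

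**Figure D2:**
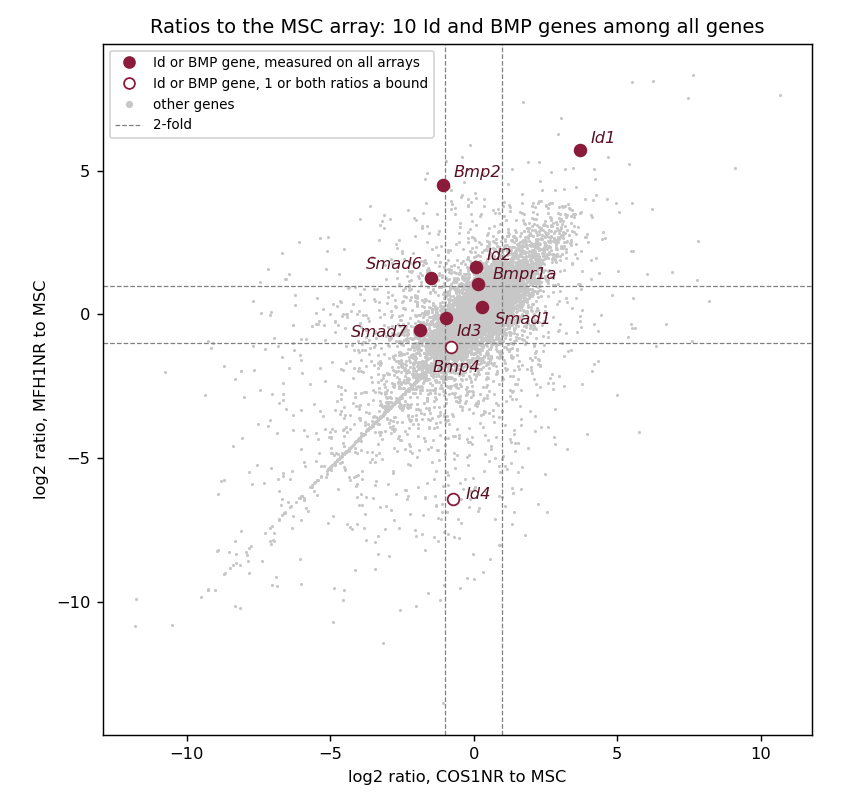
Log2 ratio to MSCs in COS1NR (x axis) and in MFH1NR (y axis) for the 10 Id and BMP genes, labelled, and all other genes with both ratios, in grey; dashed lines mark 2-fold and open points hold a bound. Id1 lies far out on both axes (3.70 and 5.73), Bmp2 and Smad6 lie left of and above the origin, and the grey line at the lower left holds genes at background in both sarcomas.

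**Figure D3:**
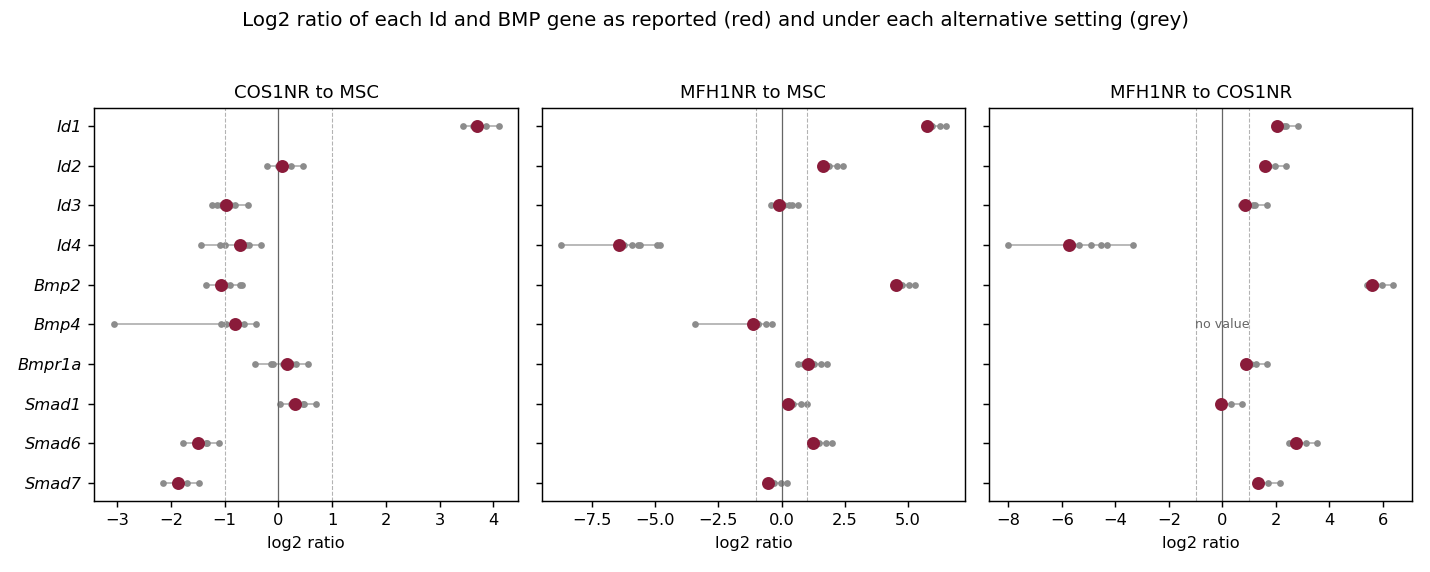
Log2 ratio (x axis) of each gene (rows) for COS1NR to MSC, MFH1NR to MSC and MFH1NR to COS1NR, as reported (red) and under each alternative processing (grey points joined by a line), with 2-fold dashed. Id1, Bmp2 and Smad6 keep their side of zero in all panels, while Id3, Smad1, Bmpr1a, Id2 and Smad7 cross it in at least 1.

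The genes nearest to Id1 by Euclidean distance between their pairs of log2 ratios to MSCs, out of 7932 genes well above background on all arrays, were Fbxo5, Vax2, Ankrd34a, Nrn1 and Mis18a. Fbxo5, an inhibitor of the anaphase-promoting complex, had log2 ratios of 3.46 in COS1NR and 5.11 in MFH1NR, at a distance of 0.67. Vax2, a homeobox factor, had 4.20 and 5.07, and Ankrd34a had 2.93 and 6.27. Nrn1, a neurite growth factor, had 4.21 and 4.70, and Mis18a, which takes part in centromere assembly, had 3.16 and 4.38. In MSCs, the intensities of these nearest genes were low, from 22.0 (Ankrd34a) to 82.0 (Mis18a), against 566 for Id1. The dimmest spot with the call had 18.0 there. No Id or BMP gene was among the nearest genes, and the distance rests on 3 arrays.

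The rest of the pathway was read from lists of 59 genes, of which 45 had a named probe and 41 were well above background on at least 1 array. Of these, 10 of 39 with a ratio were at least 2-fold higher in COS1NR than in MSCs and 14 were lower, against 20.6% and 20.0% of all genes. In MFH1NR, 6 of 40 were higher and 18 lower, against 19.3% and 21.6% of all genes. These became 12 and 11 without scaling, against 41.4% and 12.96% of all genes, and 11 and 11 with spike-in scaling, against 33.6% and 15.0%. The median log2 ratio was -0.37 in COS1NR and -0.51 in MFH1NR, against 0.11 and 0.015 for all genes. Lower in both lines were 13 of them, against 12.9% of all genes, and higher in both were 4, against 10.8%. The counts for each role below stand beside these same all-gene shares, and with so few genes in a role they are a description.

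Among the other BMP ligands, 4 of 7 were at least 2-fold higher (20.6% of all genes) and 2 lower (20.0%) in COS1NR, and 3 were higher (19.3%) and 2 lower (21.6%) in MFH1NR. Bmp6 had 26.6 in MSCs, 706 in COS1NR and 6.64, below the call, in MFH1NR. In COS1NR it was 20.2-fold above MSCs, with a log2 ratio of 4.34 that became 2.68 after normexp. The ligand farthest above MSCs was thus Bmp6 in COS1NR and Bmp2 in MFH1NR, among those measured. Bmp8a had 80.7, 227 and 721, with ratios to MSCs of 2.14 and 5.30, and Gdf2, which signals through Acvrl1, had 37.1, 101 and 132, with 2.07 and 2.11. Both in COS1NR were under 2-fold after normexp and with spike-in scaling, as was Gdf2 in MFH1NR after normexp, where the log2 ratio of Bmp8a in MFH1NR went from 2.41 to 1.70. Bmp3, which opposes osteogenic BMPs, was lower by at least 5.91-fold in COS1NR and by 2.44-fold in MFH1NR, the latter under 2-fold without scaling and with spike-in scaling, and Bmp5 was at least 4.75-fold and 5.96-fold lower. After normexp, the log2 bound of Bmp3 in COS1NR was -1.74 and those of Bmp5 were -1.62 and -1.75.

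Of the receptors and co-receptors, 3 of 9 were at least 2-fold lower in COS1NR (20.0% of all genes) and 5 of 8 in MFH1NR (21.6%), and 3 were higher in COS1NR (20.6%) and none in MFH1NR (19.3%). Acvrl1, the type I receptor for Gdf2 in endothelial cells, had 3485 in MSCs, 6.37 in COS1NR and 6.40 in MFH1NR. Neither sarcoma was well above background, which bounds the decrease at 156-fold and 196-fold. Its co-receptor Eng was at least 25.1-fold and 31.5-fold lower. After normexp, the log2 bounds were -6.11 and -6.20 for Acvrl1 and -3.04 and -3.43 for Eng. Beside these, the endothelial markers Kdr and Tie1 were also lower in both sarcomas. For Tie1 these were bounds, and its second probe gave bounds under 2-fold, with log2 values of -0.24 and -0.57. Cdh5 was 1.41-fold higher in COS1NR with a bound of 1.46-fold lower for MFH1NR, and Pecam1 and Tek were not well above background on any array. The summed scaled intensity of these 5 markers came to 0.693 in MSCs against 0.189 in COS1NR and 0.125 in MFH1NR, and their part in the result was not tested. Acvr1, a type I receptor for several BMPs, was 2.39-fold and 2.57-fold lower, under 2-fold in both without scaling and in MFH1NR with spike-in scaling. Bmpr1b, the other type I receptor for Bmp2 and Bmp4, had 42.7 in MSCs, 131 in COS1NR and 11.3, below the call, in MFH1NR. Its log2 ratio was 1.22 in COS1NR and bounded at -1.26 in MFH1NR, a 2-fold pattern of 1.25% of all genes, and both sides were under 2-fold after normexp and with spike-in scaling, the MFH1NR side also without scaling.

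Of the secreted antagonists, which bind BMPs outside the cell, 4 of 10 were at least 2-fold lower in COS1NR (20.0% of all genes) and 6 in MFH1NR (21.6%), and 2 (20.6%) and 1 (19.3%) were higher. Grem1 had 53526 in MSCs, 40.6 in COS1NR and 22652 in MFH1NR. Its log2 ratio to MSCs was -10.76 in COS1NR and -2.00 in MFH1NR, and by its second probe -8.98 and -2.84, so COS1NR stood far below both other arrays. Nbl1 was lowest in MFH1NR instead, with 6717, 6533 and 74.1 and a log2 ratio in MFH1NR of -7.26, which was -6.12 after normexp. Chrd was lower by at least 9.32-fold in COS1NR and by 2.26-fold in MFH1NR, the latter under 2-fold without scaling, with median or spike-in scaling and after normexp, and its second probe gave bounds under 2-fold in both. Bmper was at least 2.76-fold and 3.56-fold lower, the former bound under 2-fold after normexp. Fst, which binds activins and some BMPs, was higher in both, with ratios of 7.05 and 2.03, the latter under 2-fold after normexp.

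Inside the cell, Smad5, which works beside Smad1, differed from MSCs by 0.0058 (COS1NR) and -0.13 (MFH1NR) in log2, and Smad9 was below the call on all 3 arrays. Bambi, a pseudoreceptor that BMP signaling induces and that blocks it, followed Smad6, with 4513 in MSCs against 1088.5 in COS1NR and 13682 in MFH1NR, and ratios of 0.184 and 1.80, the latter past 2-fold without scaling and with median or spike-in scaling. Smurf2, a ubiquitin ligase that removes Smads and receptors, was 2.39-fold and 2.52-fold lower, under 2-fold in both without scaling and in MFH1NR with spike-in scaling. Tob1, which represses Smad-driven transcription in osteoblasts, was 5.31-fold and 4.91-fold higher.

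Of the BMP target genes, 3 of 6 with a ratio in COS1NR (20.0% of all genes) and 4 of 8 in MFH1NR (21.6%) were at least 2-fold lower than in MSCs, all of them homeobox genes. None was higher in COS1NR (20.6%), and 1 (Sp7, a bound) was higher in MFH1NR (19.3%), under 2-fold after normexp. Dlx5, which drives osteoblast genes, had 1443 in MSCs, 6.11 in COS1NR, not well above background, and 95.3 in MFH1NR. This bounds the decrease at 64.5-fold in COS1NR, and MFH1NR was 25.6-fold below MSCs. Msx2 was at least 23.1-fold and 29.0-fold lower, and Dlx3 at least 5.73-fold and 7.20-fold. After normexp, the log2 ratios in COS1NR and MFH1NR were -4.73 and -3.84 for Dlx5, -3.39 and -3.48 for Msx2, and -1.40 and -1.80 for Dlx3. All of these were bounds except that of Dlx5 in MFH1NR. For Msx1 the ratio was 1.27 in COS1NR, while MFH1NR was 10.2-fold lower than MSCs.

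Of 8 bHLH partners of Id proteins with a ratio, 3 were at least 2-fold higher (20.6% of all genes) and 1 lower (20.0%) in COS1NR, and 2 were higher (19.3%) and none lower (21.6%) in MFH1NR. The E proteins Tcf3, Tcf4 and Tcf12, which Id proteins bind directly, had 1099, 3438 and 2287 in MSCs, 1308, 2274.5 and 1287 in COS1NR and 2032, 6618 and 3002 in MFH1NR. Of these, Tcf12 in COS1NR was lower by at least 2-fold, with a log2 ratio of -1.22, and was under 2-fold without scaling. Twist1 and Twist2, mesenchymal bHLH factors that also dimerize with E proteins, were the partners at least 2-fold higher in both sarcomas, Twist1 with ratios of 3.45 and 2.53 and Twist2 with 2.13 and 3.51. Twist2 in COS1NR was under 2-fold after normexp and with spike-in scaling. Tal1, a factor of blood cell precursors, had a log2 ratio of 1.55 in COS1NR, which turned below 0 with its second probe. The factors Myod1, Myf5, Neurod1 and Olig1 of muscle and neural cells were not well above background on any array.

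**Figure D4:**
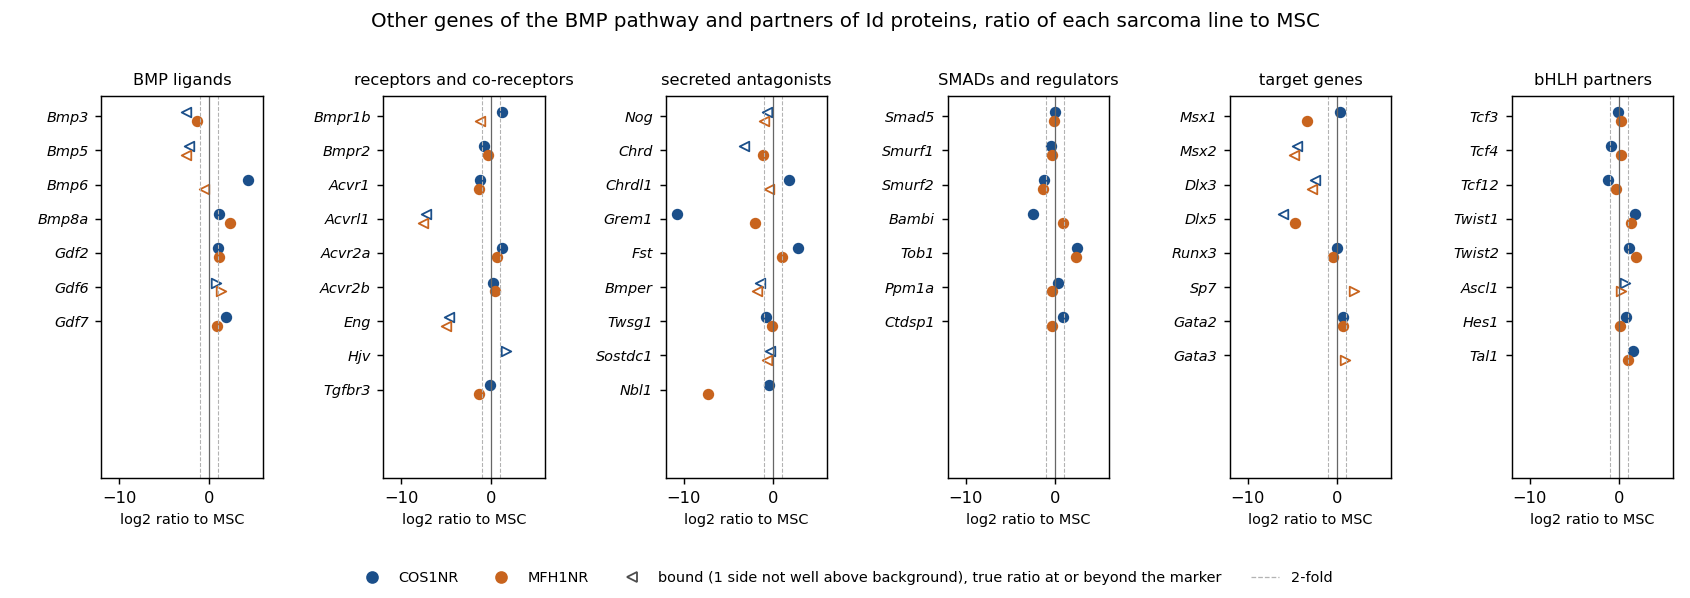
Log2 ratio to MSCs (x axis) of the other BMP pathway genes and the bHLH partners by role, COS1NR in blue and MFH1NR in orange, with 2-fold dashed; open triangles are bounds that point away from zero, and genes with no ratio in either line, or not reported here, are left out. Antagonists, receptors and homeobox targets reach far to the left, Grem1 in COS1NR to -10.76, while Bmp6 in COS1NR lies at 4.34.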

How the data were processed

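One whole rat genome array of Agilent per cell type (1 MSC, 1 COS1NR and 1 MFH1NR array) was hybridized with Cy3-labeled RNA. The deposited intensities came from Agilent Feature Extraction as run by the authors (version 10.5.1.1 in the file headers and 9.1 in the submitters' processing notes), background-subtracted and detrended within each array and not scaled between arrays. The deposited series table held the same values for all 45018 spots of each array. Control spots and 187 to 217 outlier spots per array were left out. From each log2 intensity, the 75th percentile of the array was subtracted. RefSeq accessions were named through a GRCr8 gene table, which gave 16745 of 40816 probes a gene. The probe with the highest scaled log2 intensity on average stood for its gene, and genes were counted at 2-fold.

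Genes named are the 10 chosen, those of each list at least 2-fold changed one way in both sarcomas or 4-fold in 1, the 5 genes nearest to Id1, and markers. Bmpr1b, Smad5, Smad9, Tal1, the E proteins and the partners not detected were named for their roles after their values were seen. The genes and lists were chosen with earlier results of these data known. No test was made, and the number of arrays limits the precision. The counting step was tested on simulated data. Some genes counted in the lists are not reported here by name. Alternatives were other scalings, normexp with an offset of 50 (limma 3.58.1, R 4.3.3), other probes, filters and a 3-fold threshold. Python 3.11.15, numpy 2.4.6, pandas 2.3.3 and matplotlib 3.10.9 were used.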

Additional observations from a re-analysis of the deposited data

Results flagged for a closer look

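Bmp2, Smad6 and Bmpr1b lay at least 2-fold from MSCs in opposite directions in the sarcoma lines with the scaling used. The log2 ratio of Bmp2 was -1.07 in COS1NR and 4.52 in MFH1NR, and the COS1NR side was under 2-fold without scaling, with median scaling, with its second probe and after normexp. That of Smad6, from a single probe, was -1.50 in COS1NR and 1.25 in MFH1NR. Both were lower in COS1NR and higher in MFH1NR, a pattern shown by 99 of 10010 genes (0.989%). Bmpr1b had a log2 ratio of 1.22 in COS1NR and a bound of -1.26 in MFH1NR, the reverse pattern, shown by 125 genes (1.25%), and both sides were under 2-fold after normexp and with spike-in scaling, the MFH1NR side also without scaling. With 1 array per line, the difference between the lines was not tested.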

How the results depend on the processing

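No paired analysis was possible because each cell type had 1 array. The alternatives were 12 settings, of which normexp on the median spot intensity and spike-in scaling were chosen after the data were seen. Normexp on the mean spot intensity was not run, and the median was used in its place. Among the 10 genes, no ratio of at least 2-fold turned its direction. The causes were not tested beyond the construction of each setting. The log2 ratio of Id1 became 4.10 in COS1NR and 6.49 in MFH1NR without scaling and 6.25 in MFH1NR with spike-in scaling. Shares of all genes under the same setting are in parentheses. Of the 10 genes, those at least 2-fold lower in COS1NR became 5 with the mean of all probes (19.7%) and with spike-in scaling (25.03%), and 1 at 3-fold (13.1%). Those lower in MFH1NR became 1 without scaling (12.96%), with median (18.4%), quantile (20.5%) or spike-in scaling (15.0%) and at 3-fold (14.4%), and 0 with probes well above background on all arrays (16.2%), which leaves out Id4 and Bmp4. Those higher in MFH1NR became 3 at 3-fold (10.1%). Of the other pathway genes, the 10 higher in COS1NR became 6 with probes well above background on all arrays (20.7%), at 3-fold (9.75%) and with spike-in scaling (14.5%), and 4 after normexp (14.7%). The 14 lower became 4 with probes well above background on all arrays (15.1%). In MFH1NR the 6 higher became 12 without scaling (41.4%), 11 with spike-in scaling (33.6%), 3 at 3-fold (10.1%) and 2 after normexp (14.3%). The 18 lower became 11 without scaling (12.96%), with spike-in scaling (15.0%) and at 3-fold (14.4%), and 6 with probes well above background on all arrays (16.2%). Bounds of dim genes such as Bmp4 are limited by the signal over background.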
